A study of Mus musculus with 7 samples.

Results

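The enzymes of glycolysis, the transporters that bring in glucose and export lactate, and the regulators of pyruvate entry into mitochondria were examined in mouse lung as a list of 34 genes, of 55401 genes in the deposited count table. The list was drawn up by function. Its genes were split into classes by textbook knowledge, but with earlier results of these data already known. The classes held 19 genes taken as responsive to hypoxia-inducible factor (HIF), 7 taken as typical of muscle or heart, and 8 others. Sequencing used RNA from right lung lobes of male C57BL/6 mice aged 6 to 8 weeks, each given bleomycin once into the airway, a drug whose injury to the lung is followed by fibrosis. Mice were randomized on day 7, and 3 then breathed pure oxygen in a pressure chamber (hyperbaric oxygen, HBO) at 2.5 ATA for 90 min per day on 14 consecutive days (BLM+HBO), while 4 did not (BLM). All lungs were collected on day 21, mice with little weight loss after bleomycin had been left out by the authors, and no lung without bleomycin was part of these samples. The sample records place the BLM mice in the unpressurized chamber, whereas the methods call them untreated, and which applied was not settled here.

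Glycolysis splits glucose into pyruvate, which lactate dehydrogenase turns into lactate or the pyruvate dehydrogenase complex passes on to mitochondrial oxidation. Several steps can be carried by isoenzymes from separate genes, some common in proliferating or oxygen-poor cells and others in striated muscle or heart. HIF is a transcription factor that is degraded when oxygen is plentiful and otherwise binds a short core motif, ACGTG or GCGTG, near many glycolytic genes, and in fibrotic lung activated fibroblasts and macrophages are known for high glycolysis.

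The promoters of the 3 pairs of isoenzymes that moved in opposite directions are shown first, with that of the lactate transporter Slc16a1 for comparison. Each run is the 250 bases before a RefSeq transcription start (GRCm38.p6), read 5′ to 3′ on the gene's strand, and capitals mark ACGTG or GCGTG on either strand, so that they also appear as CACGT or CACGC. The palindrome CACGTG, which is also the E-box of other factors, counts on both strands. Pgam1, Eno1 and Ldha are isoenzymes of the HIF-responsive class, Pgam2, Eno3 and Ldhb their counterparts of muscle and heart.
Pgam1, chr19:41911621-41911870, plus strand: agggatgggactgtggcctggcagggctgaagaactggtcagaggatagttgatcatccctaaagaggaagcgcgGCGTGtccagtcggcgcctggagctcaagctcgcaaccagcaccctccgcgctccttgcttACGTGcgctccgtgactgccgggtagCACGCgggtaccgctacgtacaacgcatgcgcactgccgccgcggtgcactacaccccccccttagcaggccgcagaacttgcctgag
Pgam2, chr11:5803797-5804046, minus strand: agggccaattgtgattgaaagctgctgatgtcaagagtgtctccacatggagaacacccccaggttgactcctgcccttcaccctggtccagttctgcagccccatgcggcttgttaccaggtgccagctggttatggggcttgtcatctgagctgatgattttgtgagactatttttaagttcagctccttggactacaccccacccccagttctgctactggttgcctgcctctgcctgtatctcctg
Eno1, chr4:150236458-150236707, plus strand, before the first of 3 listed starts: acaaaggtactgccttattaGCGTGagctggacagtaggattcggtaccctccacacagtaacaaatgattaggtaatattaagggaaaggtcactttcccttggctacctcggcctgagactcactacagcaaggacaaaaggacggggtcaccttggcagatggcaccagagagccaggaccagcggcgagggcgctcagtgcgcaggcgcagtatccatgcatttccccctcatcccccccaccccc
Eno3, chr11:70656926-70657175, plus strand: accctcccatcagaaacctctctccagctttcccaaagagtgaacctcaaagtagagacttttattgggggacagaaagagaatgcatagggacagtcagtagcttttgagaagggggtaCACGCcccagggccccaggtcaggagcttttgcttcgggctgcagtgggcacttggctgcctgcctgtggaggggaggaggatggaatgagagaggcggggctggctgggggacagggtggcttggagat
Ldha, chr7:46845554-46845803, plus strand, inside the annotated span of the gene but outside its exons: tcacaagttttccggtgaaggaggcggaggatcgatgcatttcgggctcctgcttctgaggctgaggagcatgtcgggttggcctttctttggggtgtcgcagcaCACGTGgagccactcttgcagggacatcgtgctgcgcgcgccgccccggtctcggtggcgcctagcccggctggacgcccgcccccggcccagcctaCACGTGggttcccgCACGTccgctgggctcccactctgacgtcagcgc
Ldhb, chr6:142507958-142508207, minus strand: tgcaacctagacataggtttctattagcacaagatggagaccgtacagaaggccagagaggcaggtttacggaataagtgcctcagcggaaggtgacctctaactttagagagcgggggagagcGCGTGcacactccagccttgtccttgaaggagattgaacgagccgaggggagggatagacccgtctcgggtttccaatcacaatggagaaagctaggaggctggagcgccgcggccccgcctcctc
Slc16a1, chr3:104638414-104638663, plus strand: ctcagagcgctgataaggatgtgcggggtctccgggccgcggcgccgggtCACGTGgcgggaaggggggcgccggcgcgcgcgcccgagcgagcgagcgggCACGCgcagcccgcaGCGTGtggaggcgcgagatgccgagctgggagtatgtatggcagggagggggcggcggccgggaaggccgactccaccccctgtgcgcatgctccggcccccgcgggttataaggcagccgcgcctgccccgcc

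The Ldha window held 5 matches, the Slc16a1 window 4, the Pgam1 window 3, the Eno1, Eno3 and Ldhb windows 1 each and the Pgam2 window 0. The windows before the other 2 starts of Eno1 held 2 matches each. Ldha also had a second listed start, and the window before it held 1 match. Of 34 genes, 32 had a RefSeq promoter entry and 28 of these had a match before at least 1 start, compared with 41.5% of all 27025 genes. By start, 38 of 51 promoters of the list (74.5%) and 38.6% of all 32851 promoters held a match. Both motifs contain CG, and neither comparison was matched for base composition or expression, so an excess particular to HIF cannot be read from them. By class, 16 of 18 HIF-responsive, 5 of 6 muscle or heart and 7 of 8 other genes had one, as did 8 of the 9 genes that were lower in BLM+HBO and 2 of the 3 that were higher. A match is a string of letters and was not tested for binding.

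Total counts ranged from 18157161 to 26365969 per mouse, and the 34 genes together took 0.330% to 0.426% of them. All 34 genes passed the filter on low counts, with between 24 and 15121 counts in a mouse. Values are given as CPM (counts scaled to a common library size). Across the 17465 genes tested, 0 had an adjusted P below 0.05 by edgeR (smallest 0.423), and 1861 (10.7%) had an unadjusted P below 0.05. DESeq2 called 128 genes (0.734%) at an adjusted P below 0.05 and limma-trend 0, with 1953 genes (11.2%) at an unadjusted P below 0.05. The words lower and higher, fell and rose therefore refer to the unadjusted edgeR P. Each mouse was taken as 1 replicate, and the P values reflect the spread between these mice.

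In BLM+HBO lungs RNA was lower for Pfkl, Tpi1, Pgam1, Eno1, Pkm, Ldha, the lactate carriers Slc16a1 and Slc16a3 and the kinase Pdk3, and higher for the muscle or heart isoenzymes Pgam2, Eno3 and Ldhb. Of the 34 genes, 9 (26.5%) were lower in BLM+HBO, 3 (8.82%) were higher and 22 did not pass. The background was 5.54% of all genes tested for lower and 5.11% for higher. DESeq2 called the same 9 and 3 genes, where it called 6.09% of all genes lower and 5.6% higher. The adjusted P of these 12 genes lay between 0.423 and 0.453 by edgeR. The fall was modest, 18.3% to 32.2%, and 0 of the 9 lower genes passed a fold change of 1.5, whereas all 3 higher genes did, against 2.89% and 3.4% of all genes. The groups did not overlap for 7 genes that were lower and for 1 that was higher, where 4.72% and 4.05% of all genes did so (8.77% in either direction).

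**Figure D1:**
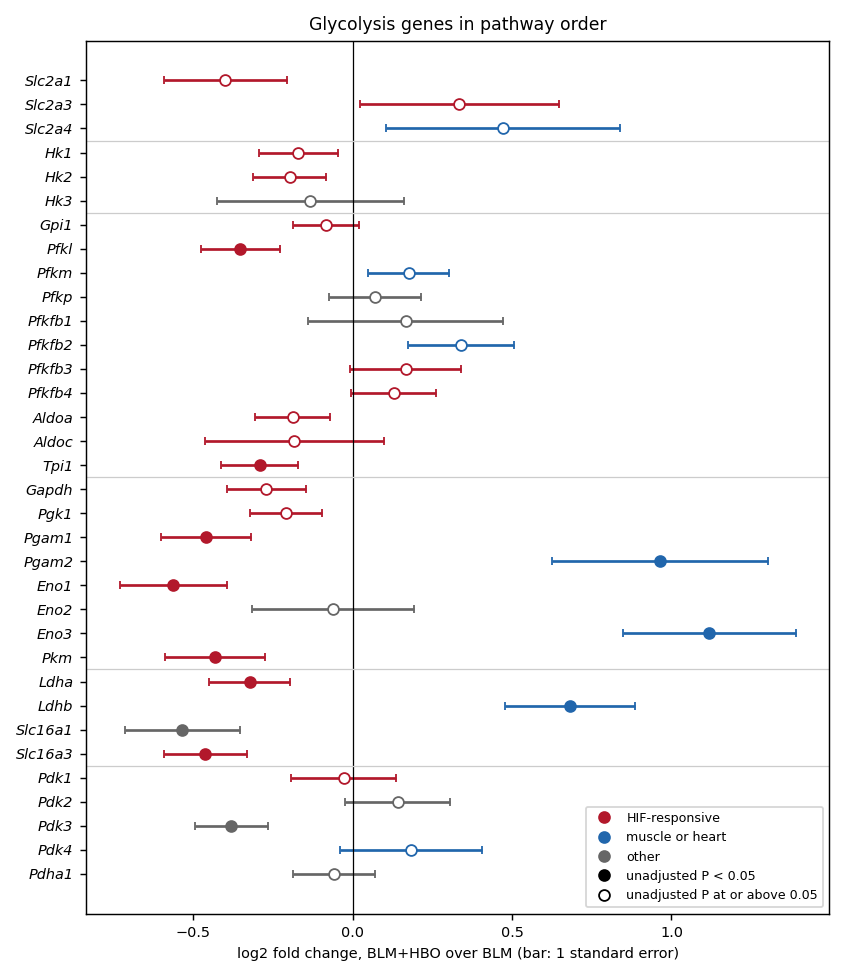
Log2 fold change of BLM+HBO (3 mice) over BLM (4 mice) for each of the 34 genes in pathway order, with bars of 1 standard error from edgeR. Filled points passed an unadjusted P of 0.05, which held for 9 genes on the left and 3 on the right, and all 7 muscle or heart genes (blue) lie to the right of 0.

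By class, of the 19 HIF-responsive genes, 7 were lower and 0 were higher, with 16 negative and 3 positive values and a median log2 fold change of -0.21. All 7 muscle or heart genes had a positive value, 3 were higher and 4 did not pass, and the median was 0.47. Of all 17465 genes tested, 8523 had a negative and 8942 a positive value. Of the 8 other genes, 2 were lower and the median was -0.06, and the median over all genes tested was 0.01. Summed over the class, HIF-responsive RNA was 3377 to 3844 CPM in BLM and 2718, 3326 and 2713 CPM in BLM+HBO 1, 2 and 3. The sum of the muscle or heart class was 151 to 191 CPM in BLM and 296, 206 and 273 CPM in BLM+HBO. In both sums the groups did not overlap, and BLM+HBO 2 lay nearest to the BLM mice. Ldhb was a large part of the muscle or heart sum, at 69.1 to 95.3 CPM in BLM and 144, 90.2 and 162 CPM in BLM+HBO. Eno3 and Pgam2 were instead nearest to the BLM mice in BLM+HBO 3.

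Levels can be compared between genes only per exon length. By this measure Aldoa was highest in BLM lungs (212 ± 8.52 CPM per kb, SD, n = 4), followed by Ldha (153 ± 7.26) and Pkm (144 ± 14.9), which did not differ beyond their spread. Pgk1 (83.8 ± 4.18) and Eno1 (73.5 ± 11.5) came next, also within their spread. This order is uncertain, since near-identical copies hold 49.4% of the 150-base windows of Pgk1, 32.2% of those of Pgam1, 18.1% of Gapdh and 16.5% of Eno1, and the counting discards reads that map to several places. Pfkfb1 was lowest (0.503 ± 0.127), then Slc2a4 (1.12 ± 0.37). The muscle forms Pgam2 (5.31 ± 1.57) and Eno3 (7.23 ± 1.35) were far below Pgam1 (60.7 ± 9.36) and Eno1, whereas Ldhb (52.4 ± 9.17) was nearer to Ldha.

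**Figure D2:**
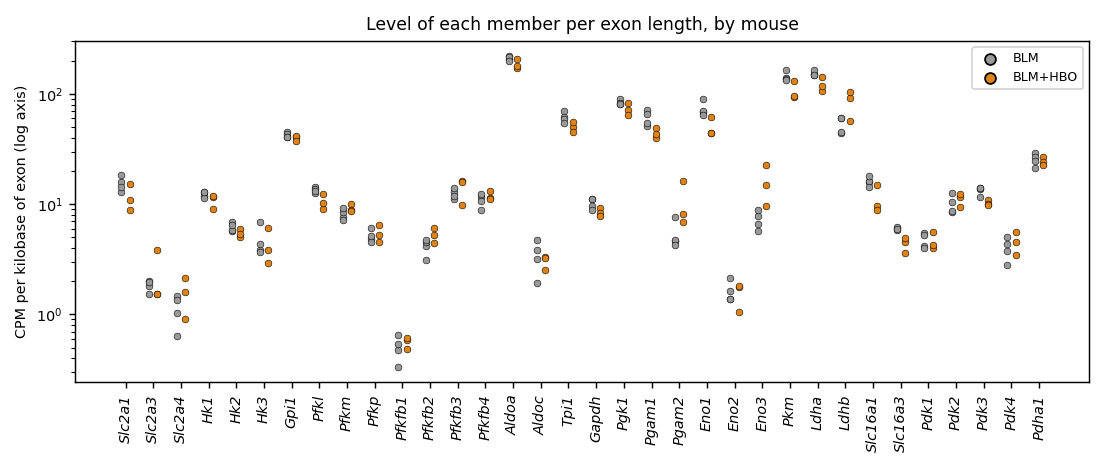
CPM per kilobase of exon on a log axis for the 34 genes in pathway order, with 1 point per mouse, grey for BLM and orange for BLM+HBO. Aldoa, Ldha and Pkm stand highest, Pfkfb1 and Slc2a4 lowest, and the orange points of Eno3 lie above all grey ones.

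Glucose uptake and its first phosphorylation showed 0 of 6 genes past the test in either direction by edgeR, DESeq2 or limma-trend. Slc2a1 encodes GLUT1, the main glucose transporter of most cells, and its level was 64.4, 45.2, 56.3 and 50.1 CPM in BLM 1 to 4 and 30.8, 53.9 and 38.2 CPM in BLM+HBO 1 to 3. Only BLM+HBO 2 lay within the BLM range, and the log2 fold change was -0.40 (SE 0.19, adjusted P = 0.4996 by edgeR), or -0.65 without BLM+HBO 2, where it passed. Slc2a3 (GLUT3) and Slc2a4 (GLUT4, the transporter of muscle and fat) had values of 0.33 and 0.47 that did not pass. The value of Slc2a3 turned to -0.25 without BLM+HBO 1, which had 27.95 CPM against 11.1 to 14.4 in every other mouse. Hk2, the inducible hexokinase, was 41.3, 34.4, 35.2 and 38.8 CPM in BLM and 30.0, 35.5 and 32.3 CPM in BLM+HBO, and the groups overlapped (-0.20). Hk1 and Hk3 had values of -0.17 and -0.13, and that of Hk3 turned positive without BLM 3 or BLM+HBO 3.

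From glucose 6-phosphate to triose phosphate, 2 of 11 genes were lower and 0 were higher. Pfkl, the liver form of phosphofructokinase (chr10:77986947-78010083), was 96.4, 91.9, 84.8 and 87.7 CPM in BLM and 60.4, 83.1 and 68.4 CPM in BLM+HBO. The highest BLM+HBO mouse was just below the lowest BLM mouse, and Pfkl was 1.28-fold lower (log2 -0.35, SE 0.12, adjusted P = 0.423 by edgeR). It lost the call without BLM+HBO 1 (-0.25) or without BLM+HBO 3 (-0.33). The muscle form Pfkm and the platelet form Pfkp had values of 0.18 and 0.07.

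Tpi1, triosephosphate isomerase (chr6:124810586-124814296), was 192, 171, 162 and 150.5 CPM in BLM and 137, 152.5 and 124 CPM in BLM+HBO. The groups overlapped at BLM+HBO 2, and the fall of 18.3% (log2 -0.29, SE 0.12, adjusted P = 0.453 by edgeR) was the smallest of the 9. It did not pass when BLM 1 (-0.23) or BLM 2 (-0.29) was left out, nor without BLM+HBO 1 (-0.29) or 3 (-0.22). Aldoa, the main aldolase, was 608, 640, 632 and 585 CPM in BLM and 499, 605 and 520 CPM in BLM+HBO. BLM+HBO 2 alone lay within the BLM range, and the value of -0.19 did not pass (adjusted P = 0.598 by edgeR).

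The bifunctional PFKFB enzymes set the level of fructose 2,6-bisphosphate, the main activator of phosphofructokinase, and all 4 had positive values that did not pass, from 0.13 to 0.34. Of the exon bases of Pfkfb2, 19.5% overlap Yod1 or Gm29427. Pfkfb3, the form most often tied to high glycolysis, was 97.3, 85.2, 90.5 and 107 CPM in BLM and 123, 121 and 75.0 CPM in BLM+HBO. It was thus above the BLM range in BLM+HBO 1 and 2 and below it in BLM+HBO 3 (0.17, SE 0.17), and it passed when BLM+HBO 3 was left out (0.36). Gpi1 and Aldoc had values of -0.08 and -0.18, the latter turning positive without BLM 2.

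From triose phosphate to pyruvate, 3 of 8 genes were lower and 2 were higher, and the opposed genes were isoenzymes of the same steps. Pgam1, the widespread phosphoglycerate mutase (chr19:41911923-41918660), was 141, 130, 102 and 108 CPM in BLM and 79.2, 97.7 and 85.3 CPM in BLM+HBO. Every BLM+HBO mouse lay below every BLM mouse, a fall of 27.3% (log2 -0.46, SE 0.14, adjusted P = 0.423 by edgeR). Of its 150-base windows, 32.2% also occur in the transcript of Pgam1-ps2, a near-identical copy, and the counting leaves out reads that map to several places, so its level is uncertain. Pgam2, the muscle form (chr11:5801640-5803733), was 3.91, 3.94, 3.57 and 6.42 CPM in BLM and 13.6, 6.84 and 5.74 CPM in BLM+HBO. The mice of the groups overlapped at BLM+HBO 3, and Pgam2 was 1.95-fold higher (log2 0.96, SE 0.34, adjusted P = 0.423 by edgeR). Without BLM+HBO 1 the value was 0.49 and did not pass.

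Eno1, the widespread enolase (chr4:150236721-150248879), was 486, 368, 377 and 350 CPM in BLM and 236, 331 and 236 CPM in BLM+HBO. The groups did not overlap, and the fall of 32.2% was the largest of the 9 (log2 -0.56, SE 0.17, adjusted P = 0.423 by edgeR). Reads of Eno1 can be shared with Eno1b and Gm4735, which hold 16.5% of its windows. Eno3, the muscle enolase (chr11:70657202-70662513), was 9.86, 11.6, 13.6 and 15.3 CPM in BLM and 39.6, 25.9 and 16.6 CPM in BLM+HBO. All BLM+HBO mice exceeded all BLM mice, with BLM+HBO 3 close to the highest of them, and Eno3 was 2.17-fold higher (log2 1.12, SE 0.27, adjusted P = 0.423 by edgeR). Its value was 0.75 to 1.37 when each mouse was left out in turn, and it passed each time. Eno3 was also the only gene of the list with an adjusted P below 0.05 by DESeq2 (0.0223). Eno2, the neuronal enolase, had a value of -0.06.

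Pkm, pyruvate kinase M (chr9:59656368-59679375), was 833, 695, 688 and 672 CPM in BLM and 469, 656 and 481 CPM in BLM+HBO. There was no overlap, BLM 1 was high and BLM+HBO 2 near the BLM mice (log2 -0.43, SE 0.16, adjusted P = 0.426 by edgeR). The call was lost without BLM 1 (-0.36), BLM+HBO 1 (-0.34) or BLM+HBO 3 (-0.36), and 15.3% of its exon bases overlap Gm49759. Counts per gene do not separate the M1 and M2 splice forms. Gapdh and Pgk1 had values of -0.27 (adjusted P = 0.473) and -0.21 (adjusted P = 0.542) that did not pass by edgeR. Near-identical copies hold 18.1% of the windows of Gapdh and 49.4% of those of Pgk1, so the levels of both genes are uncertain. The windows were pooled over all transcripts of a gene, and the share for its main transcript can be larger or smaller.

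**Figure D3:**
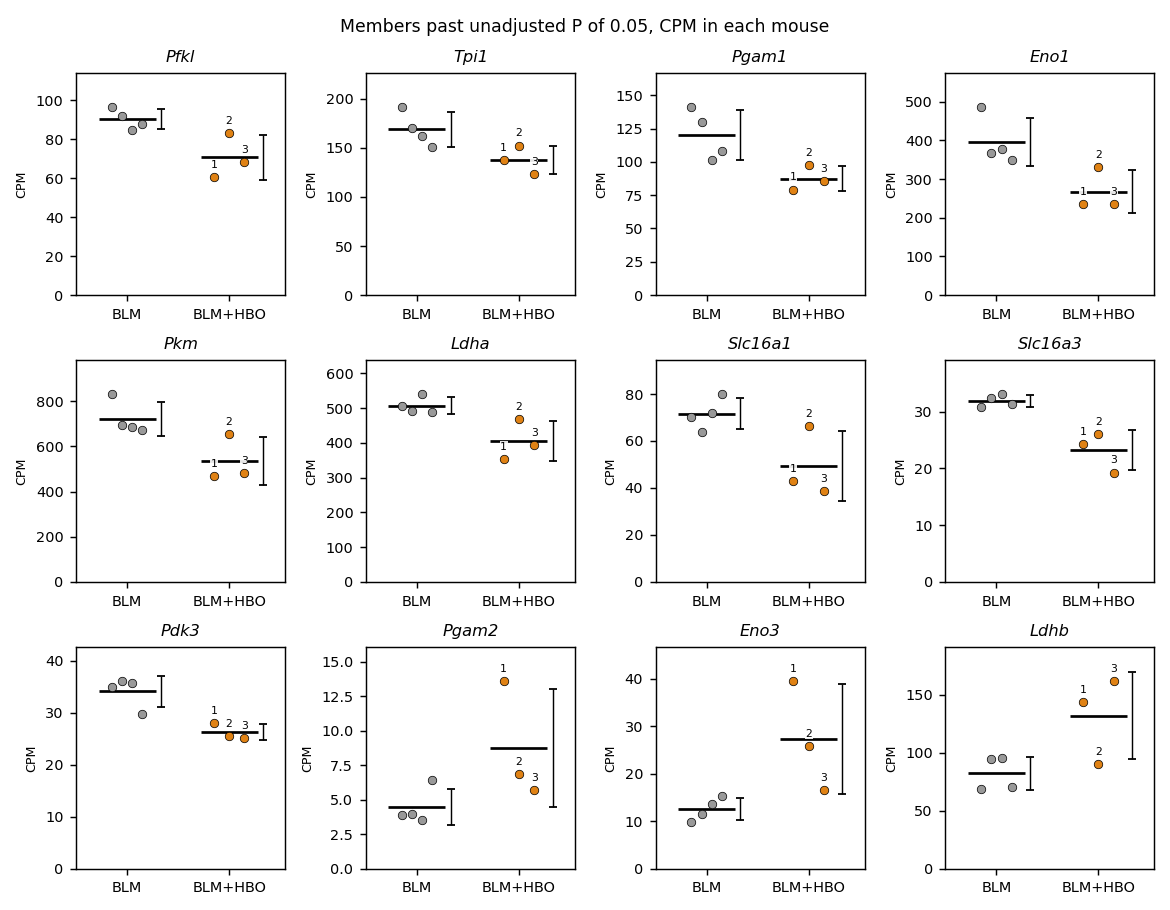
CPM in each mouse for the 12 genes with an unadjusted P below 0.05, with a line at the group mean, a bar of 1 SD and each BLM+HBO mouse numbered. In 8 of the 9 lower genes BLM+HBO 2 is the highest of its group, and in Pgam2 and Eno3 BLM+HBO 1 is the highest.

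At the lactate end, all 4 genes passed, 3 lower and 1 higher. Ldha, the subunit typical of glycolytic tissue (chr7:46841475-46855627), was 506, 491, 541 and 488 CPM in BLM and 353, 468 and 394 CPM in BLM+HBO. No BLM+HBO mouse reached the BLM range (log2 -0.32, SE 0.13, adjusted P = 0.440 by edgeR), but the call was lost without BLM 3 (-0.29), BLM+HBO 1 (-0.23) or BLM+HBO 3 (-0.31). Ldhb, the heart subunit (chr6:142490249-142507957), was 69.1, 94.2, 95.3 and 70.6 CPM in BLM and 144, 90.2 and 162 CPM in BLM+HBO. BLM+HBO 2 lay within the BLM range and the other 2 well above it, and Ldhb was 1.604-fold higher (log2 0.68, SE 0.20, adjusted P = 0.423 by edgeR). Per exon length the 2 subunits together were 205 ± 14.1 CPM per kb in BLM and 206 ± 13.7 in BLM+HBO, and the share of Ldhb was 22.4% to 28.8% in BLM and 46.2%, 28.9% and 46.4% in BLM+HBO 1 to 3.

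Slc16a1 and Slc16a3 encode MCT1 and MCT4, the carriers that take up and export lactate. Slc16a1 (chr3:104638668-104658462) was 70.3, 64.0, 71.8 and 80.0 CPM in BLM and 43.1, 66.3 and 38.9 CPM in BLM+HBO. BLM+HBO 2 lay within the BLM range and the others far below it (log2 -0.53, SE 0.18, adjusted P = 0.423 by edgeR). The value was -0.81 without BLM+HBO 2, with an adjusted P of 0.0318 by edgeR. In that fit 203 of all genes were lower and 64 higher at an adjusted P below 0.05, against 0 with all mice. Slc16a1 did not pass without BLM+HBO 1 (-0.45) or BLM+HBO 3 (-0.39). Slc16a3 (chr11:120948480-120960868) was 30.8, 32.5, 33.1 and 31.4 CPM in BLM and 24.3, 26.1 and 19.3 CPM in BLM+HBO. The BLM mice were close together and all BLM+HBO mice lay below them, a fall of 27.4% (log2 -0.46, SE 0.13, adjusted P = 0.423 by edgeR). The 2 carriers summed per exon length were 20.6 to 24.0 CPM per kb in BLM and 14.3, 19.9 and 12.4 in BLM+HBO.

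Of the 5 genes of pyruvate dehydrogenase control, 1 was lower. Pdk3, a kinase that switches the complex off (chrX:93764607-93832201), was 34.97, 36.2, 35.9 and 29.8 CPM in BLM and 28.1, 25.6 and 25.2 CPM in BLM+HBO. Here too all BLM+HBO mice lay below all BLM mice, and BLM+HBO 2 was not the nearest to BLM (log2 -0.38, SE 0.12, adjusted P = 0.423 by edgeR). Pdk1, the kinase best known as a HIF target, was 42.7, 41.0, 32.2 and 31.2 CPM in BLM and 43.9, 31.0 and 33.3 CPM in BLM+HBO, so the groups covered the same range (-0.03, SE 0.17). Pdk4, the fasting-induced kinase of muscle and heart, was 15.2, 17.5, 13.3 and 9.95 CPM in BLM and 19.5, 16.0 and 12.3 CPM in BLM+HBO (0.18, SE 0.22). Pdk2 and Pdha1, the catalytic subunit of the complex, had values of 0.14 and -0.06.

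The balance of isoforms was measured as the log2 ratio of the HIF-responsive to the muscle or heart gene within each mouse, for 7 pairs. The pairs repeat the genes above, so the ratios are not independent of those results. Pgam1/Pgam2 was 5.14, 5.01, 4.79 and 4.05 in BLM and 2.53, 3.82 and 3.87 in BLM+HBO, a difference of -1.34. Eno1/Eno3 was 5.61, 4.97, 4.79 and 4.51 in BLM and 2.57, 3.67 and 3.82 in BLM+HBO, a difference of -1.61. Ldha/Ldhb was 2.87, 2.38, 2.50 and 2.79 in BLM and 1.29, 2.37 and 1.28 in BLM+HBO (-0.98), and Pfkl/Pfkm differed by -0.54. In these 4 pairs every BLM+HBO mouse was below every BLM mouse. The gap was very small for 2 of them, Ldha/Ldhb and Pfkl/Pfkm. BLM+HBO 2 and BLM 2 were almost equal for Ldha/Ldhb, and BLM+HBO 2 (1.497) and BLM 4 (1.504) for Pfkl/Pfkm. How often ratios of other gene pairs do not overlap was not computed. Each gave P = 0.0571 in a two-sided exact permutation test over 35 assignments, the smallest it can give, so that this design cannot reach 0.05 (adjusted P = 0.1 over 7 pairs). Slc2a1/Slc2a4 (-0.87, exact P = 0.114), Pdk1/Pdk4 (-0.22, exact P = 0.229) and Pfkfb3/Pfkfb2 (-0.21, exact P = 0.686) overlapped. Per exon length, Eno3 was 5.82% to 11.6% of enolase RNA in BLM and 17.3% to 33.6% in BLM+HBO, and Pgam2 was 6.13% to 12.3% and 13.7% to 28.9% of mutase RNA.

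**Figure D4:**
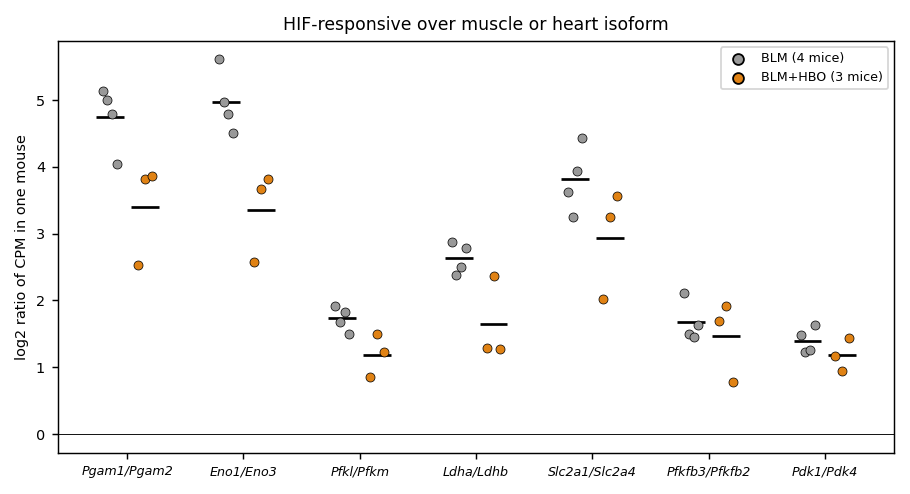
Log2 ratio of CPM of the HIF-responsive over the muscle or heart isoform in each mouse for 7 pairs, grey for BLM, orange for BLM+HBO, with a line at each group mean. The groups do not overlap for Pgam1/Pgam2, Eno1/Eno3, Pfkl/Pfkm and Ldha/Ldhb, but only narrowly so for Pfkl/Pfkm and Ldha/Ldhb.

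In whole lung, fewer cells of a type and less RNA per cell cannot be told apart, and markers of several cell types moved with these genes. Markers of lung epithelium were present in all mice, with Sftpc between 4549 and 16260 CPM. Of 12 heart and striated muscle markers, 11 were higher in BLM+HBO and Nppa, at most 2.25 CPM in any mouse, was not, and their sum was 73.6 to 201 CPM in BLM and 755, 594 and 174 CPM in BLM+HBO 1 to 3. In BLM+HBO 3 this sum lay within the BLM range. However, 4 of the 12 markers (Mb, Actc1, Ttn and Ckm) were above all BLM mice in every BLM+HBO mouse. Over all genes the share was 4.05%. In BLM+HBO 3 Mb was 6.41 CPM against at most 2.37 CPM in BLM. Eno3 was 16.6 CPM there against at most 15.3 CPM in BLM, and Pgam2 was within the BLM range. Ldhb followed another order, since it was within the BLM range in BLM+HBO 2, where the muscle sum was 594 CPM, and highest in BLM+HBO 3. The sum of 6 alveolar type 2 markers, of which 1 was higher, had the same order as Ldhb in BLM+HBO (22540, 10530 and 25960 CPM, against 8273 to 14910 in BLM). The part of these cells in the values of Eno3, Pgam2 and Ldhb was not tested.

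Of 9 monocyte and macrophage markers, 5 were lower (Cd68, Adgre1, C1qa, C1qb and Mrc1). The sum of the 9 was 1290 to 1942 CPM in BLM and 895, 1281 and 800 CPM in BLM+HBO. However, 2 of the 9, Ccr2 (0.05) and Ly6c2 (0.47), had positive values that did not pass. In BLM+HBO 1 Ccr2 was 156 CPM against at most 113 in BLM, and Ly6c2 was 61.3 CPM against at most 26.7. Of 6 myofibroblast markers, 5 were lower, with sums of 4441 to 7109 CPM and 1595, 4553 and 2673 CPM. Of 7 proliferation genes, 5 were lower, with sums of 190 to 229 CPM and 109, 137 and 210 CPM. BLM+HBO 2 was thus closest to BLM in the macrophage and myofibroblast sums, as it was in 8 of the 9 lower glycolysis genes, whereas BLM+HBO 3 was closest in the proliferation sum. The part of these cells in the lower values was not tested. Of 7 neutrophil and 7 erythroid markers tested, 0 passed by edgeR. The summed neutrophil list was nonetheless uneven, at 506, 102 and 117.5 CPM in BLM+HBO 1 to 3 against 164 to 233 CPM in BLM. Of 6 alveolar macrophage markers 3 passed, with Marco (-2.06) and Chil3 (-1.06) lower and Krt79 (2.09) higher, and 1 marker was lower of 5 for adipocytes, of 6 for alveolar type 1 cells and of 6 for endothelium, where 10.7% of all genes passed in either direction.

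**Figure D5:**
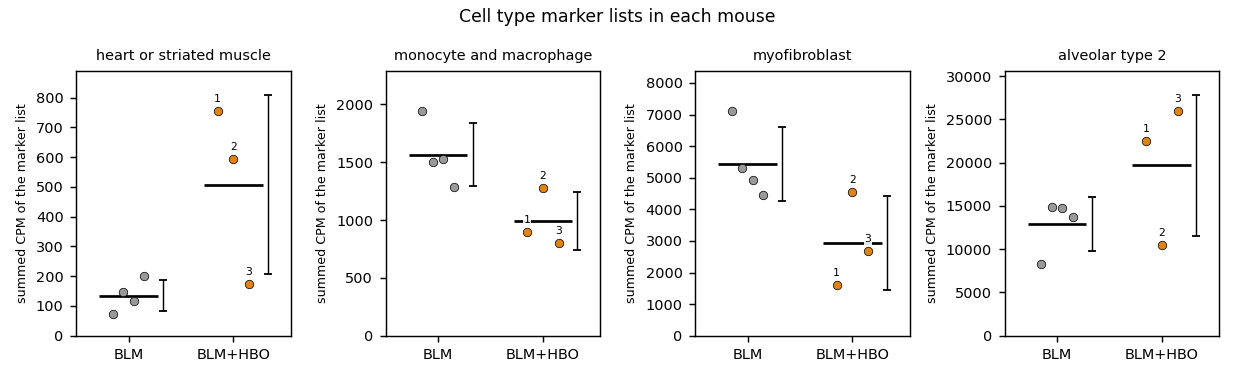
Summed CPM of 4 marker lists in each mouse, with a line at the group mean, a bar of 1 SD and each BLM+HBO mouse numbered. The muscle sum is high in BLM+HBO 1 and 2 only, the macrophage and myofibroblast sums are lowest in BLM+HBO 1 and 3, and the alveolar type 2 sum is highest in these mice.

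Neighbouring pathways were compared to see where the list differed. Of 60 tested genes of other glycolytic isoenzymes, other sugar and monocarboxylate carriers, pyruvate entry, gluconeogenesis, the pentose phosphate pathway, glycogen and HIF targets outside glycolysis, 0 were lower by edgeR, DESeq2 or limma-trend and 1 was higher by edgeR. Their median log2 fold change was -0.0022, against -0.11 for the 34 genes, and the difference was not tested. The higher gene was Slc16a7, the lactate and pyruvate carrier MCT2, at 22.7, 20.4, 19.6 and 15.9 CPM in BLM and 40.2, 19.4 and 29.5 CPM in BLM+HBO (log2 0.60, SE 0.23, adjusted P = 0.438 by edgeR). Its value in BLM+HBO 2 lay within the BLM range, and the call was lost without BLM+HBO 1 or BLM+HBO 3. The 14 HIF targets outside glycolysis had a median of -0.23, 9 negative and 5 positive values, and 0 passed. Without BLM+HBO 2, 6 of the neighbouring genes and 11 of the 34 were lower, and the share over all genes tested was also larger, 8.46% against 5.54%.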

How the data were processed

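Lung RNA of 7 mice was sequenced as paired ends from NEBNext Ultra libraries. After trimming (Trim Galore) and mapping to GRCm38 (HISAT2, 2.2.0 per the processing notes), the authors counted reads with featureCounts and deposited the raw counts per gene. Its default settings, which they used, ignore strand and discard multi-mapped reads and reads over more than 1 gene. The annotation release was not given in the sources used here. Symbols came from GENCODE, which named 55141 of 55401 genes. Of a pair of genes with the symbol Aldoa, the one with more reads was used.

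Genes with few reads were removed by filterByExpr at its defaults (10 counts, 15 in total), and the rest were normalized by TMM (factors 0.964 to 1.04) and fitted across 17465 genes with the quasi-likelihood test of edgeR 4.0.16 (R 4.3.3), group as the only factor, with Benjamini-Hochberg adjustment over all genes. The common biological coefficient of variation was 0.222. Log2 CPM used a prior count of 2, and ratios were compared by exact permutation in scipy 1.17.1. DESeq2 1.42.0, limma-trend (limma 3.58.1), other factors and filters, a replicate block, other thresholds and leaving out each mouse were alternatives. Near-identical copies were sought by matching 150-base windows, pooled over all transcripts of a gene, and promoter sequences were RefSeq's.

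The genes, classes, marker lists and alternatives were chosen with earlier results of these data known. The rule gave values per mouse for genes with an unadjusted P below 0.05 or groups that do not overlap and for 8 fixed genes, and named of the neighbouring lists at most 3 genes each with an unadjusted P below 0.05.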

Additional observations from a re-analysis of the deposited data

Results flagged for a closer look

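Of 53 sets of values of the 4 BLM mice examined, 3 held a mouse whose gap to its nearest neighbour, as a share of the whole range, was above Dixon's 95% critical value, where chance gives about 1 in 20. For Pgam2 this was BLM 4, at a log2 CPM of 2.71 against 1.88 to 2.02 elsewhere in its group (gap 0.830). For Pkm it was BLM 1, at a log2 CPM of 9.70 against 9.39 to 9.44 (gap 0.839). For the total count it was BLM 4, at 19002242 against 18436336 to 18452895 (gap 0.971).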

How the results depend on the processing

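The count of lower genes was 9 by edgeR, DESeq2 and limma-trend and 4 under a P limit of 0.01. It was 0 where a 1.5-fold change was also required and 0 at an adjusted P below 0.05. It ranged from 4 (without BLM+HBO 3) to 11 (without BLM+HBO 2) when a mouse was left out, with 5 without BLM+HBO 1, while the share of all genes tested that were lower went from 5.54% to 3.39%, 8.46% and 2.89% in these fits. The count of higher genes was 3, 0 at an adjusted P below 0.05, and 2 to 4 when a mouse was left out. Pgam1, Eno1, Eno3, Ldhb, Slc16a3 and Pdk3 passed in all 15 alternative fits. Over these fits the adjusted P ranged from 0.00429 to 0.802 for Eno3 and from 0.0246 to 0.802 for Ldhb, lowest without the filter on low counts, and from 0.0318 to 0.802 for Slc16a1, lowest without BLM+HBO 2. Of all genes, 234 were lower and 153 higher at an adjusted P below 0.05 without the filter. Without BLM+HBO 2 these numbers were 203 and 64. Among neighbouring pathways, the count of lower genes went from 0 to 3 without the filter on low counts and to 0 to 6 when a mouse was left out, and that of higher genes from 1 to 2 by DESeq2, limma-trend or upper-quartile factors, 3 without the filter and 0 to 3 when a mouse was left out. Ratios that did not overlap numbered 4, and 4 to 6 when a mouse was left out.

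When a mouse was left out, the log2 fold change changed sign for 7 genes, none of which passed: Hk3 (-0.48 to 0.12, positive without BLM 3 or BLM+HBO 3), Pfkp (-0.07 to 0.18, negative without BLM+HBO 2), Aldoc (-0.38 to 0.021, positive without BLM 2), Eno2 (-0.19 to 0.15, positive without BLM 3 or BLM+HBO 1), Slc2a3 (-0.25 to 0.56, negative without BLM+HBO 1), Pdk1 (-0.19 to 0.067, positive when BLM 1 or 2 or BLM+HBO 2 or 3 was left out) and Pdha1 (-0.14 to 0.016, positive without BLM 1). The cause was not tested. Samples with the same replicate number correlated at -0.00797, -0.066 and 0.161 in their deviations, and those with different numbers at -0.179 to 0.165. The main fit therefore did not pair samples by number, although so few correlations cannot exclude a pairing. With the replicate block, 9 genes were lower and 4 higher, Ldha lost its call and Gapdh and Pfkfb2 gained one, and 2 neighbouring genes were lower and 3 higher.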

Other observations

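Of 9 tested genes of other glycolytic isoenzymes 7 had positive values (median log2 fold change 0.06), and all 4 tested genes of gluconeogenesis did (0.08), without a call by edgeR. The medians were -0.10 for 9 other sugar and monocarboxylate carriers, -0.03 for 9 genes of pyruvate entry, -0.03 for 7 genes of the pentose phosphate pathway and 0.01 for 8 genes of glycogen metabolism. The 14 HIF targets outside glycolysis had a median of -0.23, beyond that of the 34 genes (-0.11). It was close to that of the 19 HIF-responsive genes among the 34 (-0.21). The groups did not overlap for 3 of the 60 genes of all 7 lists, 2 lower, of which 1 was a HIF target, and 1 higher, against 8.77% of all genes.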
